A study of Mus musculus with 14 samples.

Results

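Interstitial cells of Cajal are the pacemaker cells of the gut muscle coat, and the nuclei described here were picked from 2 libraries of single nuclei of mouse colonic muscularis by 5 genes that mark such cells. The rule kept barcodes with at least 300 genes and at most 5% mitochondrial transcripts, counted in unique molecular identifiers (UMIs, 1 per captured transcript). A nucleus was a member when it had at least 1 UMI of Kit, at least 3 UMIs of Kit, Ano1, Prkcq, Enpep and Dkk2 together, and none of Pdgfra, the receptor that marks the neighbouring fibroblast-like cells. Of 4533 nuclei kept, 238 were members. In the WT library 155 of 2837 nuclei met the rule (5.46%, 95% exact binomial interval 4.66 to 6.36), and in the KO library 83 of 1696 (4.89%, 3.92 to 6.03).

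The muscularis, which is the muscle coat of the gut with its nerves and interstitial cells, came from C57BL/6 mice. One genotype is labelled "Carmn iKO" and is written KO below, and the control genotype is labelled "WT mTmG" and is written WT. Carmn makes a long non-coding RNA known from smooth muscle, and the series asks about its part in the contraction of visceral muscle. Colon gave 1 library of nuclei per genotype, and colon and jejunum each gave 3 bulk libraries per genotype. The sources used here do not give how, when or in which cells Carmn was deleted, nor ages or treatments, so the labels do not say whether Carmn was targeted outside muscle. With 1 library of nuclei per genotype there is no test between genotypes, and every interval on nuclei covers counting error only.

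As background, these cells set the electrical slow waves of gut muscle. The receptor tyrosine kinase Kit and the transcription factor Etv1 maintain them, release of calcium from internal stores opens the chloride channel encoded by Ano1, and gap junctions pass the current on to muscle. They also receive nitric oxide and acetylcholine from enteric nerves. Prkcq encodes a protein kinase C, Enpep an aminopeptidase and Dkk2 a secreted Wnt antagonist.

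Carmn, the targeted gene, had a level of 686 CPM (UMIs of the gene scaled to the UMIs of the group) in the other nuclei of the WT library and 220 in those of the KO library. The 2 libraries had a median of 1579 (WT) and 1857 (KO) UMIs per nucleus. They shared 4 barcodes among the nuclei kept, 2 of which were members in KO and none a member in both. Bulk libraries held 24254905 to 44315104 counts each, and CPM there are counts scaled to TMM library sizes. In bulk, Carmn did not run with the labels. Colon libraries labelled KO had 461 (m1), 304 (t4) and 718 (t6) CPM against 252 (t1), 171 (t6) and 351 (t7) CPM in WT. In jejunum it was at 996 (m1), 817 (t1) and 909 (t4) CPM in the libraries labelled KO against 240 (t1), 206 (t6) and 326 (t7) CPM in WT. Neither difference passed edgeR's quasi-likelihood test (Benjamini-Hochberg adjusted p = 0.234 and 0.0646). Whether the counted part of the gene lies in the deleted part is not known, so each bulk direction below is between libraries labelled KO and WT.

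The label holds for fewer than all members. All nuclei were clustered without the 5 marker genes, Pdgfra, Carmn and mitochondrially encoded genes, and the members fell into 4 groups that were named after their values were seen. Group A was the 110 members (64 WT, 46 KO) of 1 cluster of 125 nuclei, and it was interstitial cell of Cajal-like, with Kit, Prkcq, Enpep and Dkk2 among the 10 leading genes of its cluster. The rule largely fixed these 4, since 110 of the 125 nuclei had to carry the markers. Of 12 further markers of these cells, not used by the rule, 10 had at least 30 UMIs per library. In group A, 5 of these were at least 2-fold above other nuclei in both libraries (Etv1, Gucy1a1, Gucy1b1, Gja1 and Slc12a2). Another 3 were at most 0.5-fold (Cacna1h, Prom1 and Tacr1). Over all genes the shares were 3.14% and 21.2%. Genes outside the rule, such as Etv1, are described below. Group B was 26 members (18 WT, 8 KO) of a second cluster, led by Grin3a and Hs3st4. Group C was 43 members (40 WT, 3 KO) of an epithelial-like cluster with goblet cell genes. Group D was the other 59 (33 WT, 26 KO), spread over muscle-like, epithelial-like, glia-like and other clusters.

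The markers used by the rule differed between the groups, which is a description and no test. The median marker sum was 21 UMIs in WT and 22.5 in KO for group A, and 17 and 19 for group B. It was 4 and 4 for group C, and 8 and 8.5 for group D. Of the 110 nuclei of group A, 105 had Ano1, 73 Prkcq, 60 Enpep and 46 Dkk2, and 22 had all 5. All 26 nuclei of group B had Ano1, but 1 had Prkcq and 1 had Dkk2. In group C no nucleus had Prkcq or Enpep, and 15 of 43 had Kit alone. Ano1 by itself marked other cells too, since 65.3% (WT) and 64.9% (KO) of mesothelial-like nuclei (2 clusters with all 5 mesothelial markers) had a UMI of it, against 0.261% and 0% for Kit.

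**Figure D1:**
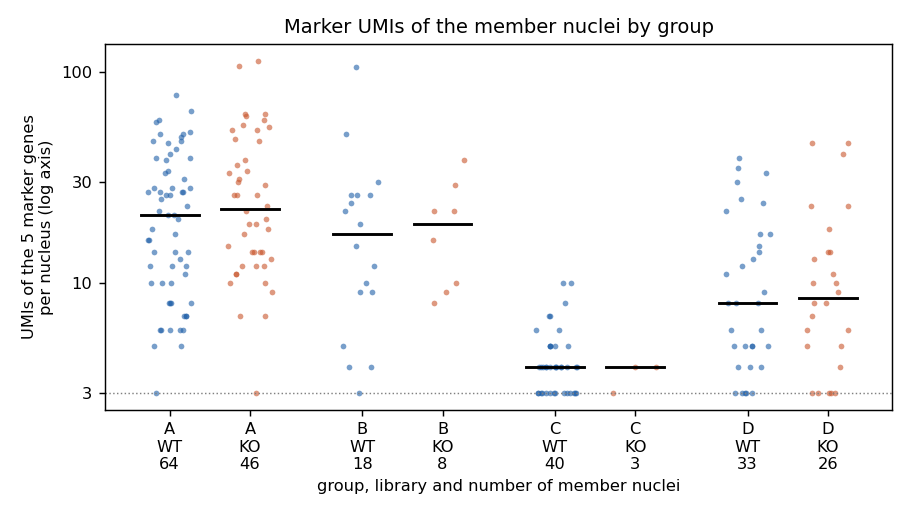
UMIs of Kit, Ano1, Prkcq, Enpep and Dkk2 together in each member nucleus (log axis), by group A to D and library. Each point is 1 nucleus, the black line is the median and the dotted line the rule's minimum of 3. Groups A and B have medians of 17 to 22.5, and group C lies at 3 to 10.

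At the edge of the rule, the 21 WT members with a marker sum of exactly 3 included 14 of the epithelial-like cluster and 1 of the cluster of group A. Together those 21 nuclei had 161 CPM of Etv1 and 5240 CPM of Muc2, the mucin of goblet cells. Just outside, 67 WT nuclei with Kit and a sum of 1 or 2 had 33.0 CPM of Etv1 and 6380 CPM of Muc2. In KO the 7 members at a sum of 3 included 1 of the epithelial-like cluster, and 12 of the 26 nuclei just outside did.

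Group D weighed most in any sum over members. Its 59 nuclei held 614565 of the 1045948 member UMIs, and its median nucleus had 4295 UMIs in WT and 4130.5 in KO, against 1642.5 and 1646.5 in group A. A few large nuclei held much of this. In WT they included nuclei of 45580, 40660, 40178, 37789, 31522 and 30634 UMIs, where group D held 357470. In KO they included nuclei of 47975, 37603, 36769 and 26656 UMIs, where group D held 257095. Sums over members or over group D thus lean on few nuclei. Other nuclei had medians of 1534 and 1838. Doublets were not removed. The results are therefore given for all members and for group A.

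Most nuclei of group A lay close to each other in the clustering. The median nucleus of group A had members as 97.5% (WT) and 95% (KO) of its nearest neighbours, and all 110 stayed in 1 cluster at a coarser and at a finer resolution. Group B was high in this too, at 80% and 77.5%, while group C was at 25% and 20% and group D at 5% in both. As shares of all nuclei, group A made up 2.26% in WT (1.74 to 2.87) and 2.71% in KO (1.99 to 3.60). Group B made up 0.634% (0.376 to 1.0) and 0.472% (0.204 to 0.927). Those intervals overlap between the libraries. Group C made up 1.41% in WT (1.01 to 1.92) and 0.177% in KO (0.0365 to 0.516), and these intervals do not overlap. The epithelial-like cluster itself held 192 WT and 48 KO nuclei, and whether its size set the difference was not tested. With 1 library each, library and genotype cannot be told apart.

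The 250 bases before the start sites of Kit, Galnt13 and L3mbtl4 are shown as examples, chosen after their values were seen, of genes high in members whose promoter a deposited open chromatin region overlapped. They are RefSeq promoters of GRCm38.p6, all on the plus strand, and capitals mark GGGCGG or its reverse complement CCGCCC. Kit lies at chr5:75574737-75574986, Galnt13, a sugar transferase gene, at chr2:54436137-54436386, and L3mbtl4, which encodes a protein with MBT domains, at chr17:68273547-68273796.
Kit: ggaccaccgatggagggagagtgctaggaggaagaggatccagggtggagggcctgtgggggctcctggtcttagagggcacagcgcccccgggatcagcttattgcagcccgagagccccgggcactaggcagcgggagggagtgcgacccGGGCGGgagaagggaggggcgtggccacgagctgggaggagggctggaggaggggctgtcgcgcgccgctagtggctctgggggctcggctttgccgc
Galnt13: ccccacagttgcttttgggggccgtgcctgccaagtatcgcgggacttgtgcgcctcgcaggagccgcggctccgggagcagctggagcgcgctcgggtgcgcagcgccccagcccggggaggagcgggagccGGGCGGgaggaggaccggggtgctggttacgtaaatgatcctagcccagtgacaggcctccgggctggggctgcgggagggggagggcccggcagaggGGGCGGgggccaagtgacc
L3mbtl4: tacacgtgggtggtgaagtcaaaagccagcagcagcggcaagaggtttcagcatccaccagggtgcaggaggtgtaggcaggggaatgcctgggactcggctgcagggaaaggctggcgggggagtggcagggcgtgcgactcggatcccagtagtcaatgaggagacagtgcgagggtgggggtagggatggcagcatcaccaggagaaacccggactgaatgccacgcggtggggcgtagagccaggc

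Kit held 1 match and Galnt13 2, and L3mbtl4 held none. On either strand, 32.7% of the 32817 RefSeq mouse windows of this length that were searched, which leave out chromosome 18, held the motif. CCGGAA, the core of many ETS factor sites, was in none of the 3 and in 12% of all windows. Of 33 genes looked up (the marker genes and the 20 leading genes of members and of group A), 28 had 39 windows, and an open region overlapped 14 of these (35.9%), against 38.2% of all windows. Windows with a region had a median of 67.0% G or C, those without one 52.4%, and all windows 52.4%.

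The chromatin counts at these promoters were sparse, and members here are those of all 4 groups. In WT, 155 members held 214965 region counts (median 589 per nucleus) and 2682 other nuclei held 2437804 (median 488.5). In KO, 83 members held 68391 (median 474) and 1613 other nuclei held 1482308 (median 454). Shares of nuclei with a count at a region, here and below, depend on this depth and were not scaled for it. A region over the Galnt13 promoter (chr2:54435839-54436816 in WT, chr2:54435778-54436682 in KO) had a count in 4 of 155 WT members (2.58%, 0.708 to 6.48) and in 27 other WT nuclei (1.01%, 0.664 to 1.46). In KO it had a count in 3 of 83 members (3.61%, 0.752 to 10.2) and in 13 other nuclei (0.806%, 0.430 to 1.37). The Kit promoter was in a region listed only in KO (chr5:75574554-75575305), with a count in 2 members (2.41%, 0.293 to 8.43) and 16 other nuclei (0.992%, 0.568 to 1.61). In group A, 0 nuclei had a count in that region. The L3mbtl4 promoter was in a region listed only in WT (chr17:68273487-68274514), with a count in 5 members (3.23%, 1.06 to 7.37) and 15 other nuclei (0.559%, 0.313 to 0.921). Of these pairs of intervals only the last does not overlap, and regions were called in each library by itself. Other leading genes went both ways: the Mdfic promoter had counts in 3.87% of WT members and 1.72% of other WT nuclei, but in 1.2% and 3.66% in KO, and the Etv5 promoter in 5.81% and 3.5% in WT but 3.61% and 4.84% in KO.

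Within 10 kb of Etv1, 1 region was listed, in WT, with its middle 591 bases before the gene's start (chr12:38778312-38779267). It had a count in 6 WT members (3.87%), of which 2 were in group A, and in 54 other WT nuclei (2.01%). The 4 regions listed at Ano1 and the 2 at Prkcq had a count in 1 or 2 members each, and in 0 or 1 nucleus of group A. Of 11205 regions matched between the libraries with at least 30 counts in each, 75 were at least 2-fold more accessible in members than in other nuclei in both libraries (0.669%), at a median of 11 (WT) and 4 (KO) member counts per region. Of the 18 matched regions with a count in at least 10% of the members of each library, none reached 2-fold in both. By the lower of its 2 ratios, the highest region lay at Prkaca, a protein kinase A gene (chr8:83971996-83973238), at 1.91-fold in WT and 2.05-fold in KO. Single regions thus rested on few member counts.

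In RNA, 137 of 11891 genes with at least 30 UMIs per library were at least 2-fold higher in members than in other nuclei in both libraries (1.15%), and 279 were at most 0.5-fold (2.35%). For group A alone, the numbers were 369 (3.14%) and 2483 (21.2%) of 11739. A gene could reach 30 UMIs through other nuclei alone and have none expected in the 118826 (WT) and 92344 (KO) UMIs of group A, so this filter sets much of the lower count and nothing is read from it. The counts of genes at most 0.5-fold in the lists below share this limit and stand beside these 21.2%. The nuclei were grouped on these same transcripts, so the ratios below describe the groups and are no test. Among the 20 genes with the highest ratio in members were Gm1604a, 2600014E21Rik, L3mbtl4, Elovl6, Galnt13, Bmpr1b, Atp2a3, Etv1, Gja1, Adgrd1, Kcnk3, Cacna1d, Tmem150b, Tox3, Cux2, Adrb1, Mdfic, Etv5 and Lrig1. Not all of them belonged to group A. Lrig1, a regulator of receptor tyrosine kinases, was 3.14-fold (WT) and 3.73-fold (KO) higher in members, but 0.810-fold and 1.75-fold the level of other nuclei in group A.

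Of the genes that act with Kit, the ETS factor Etv1 and its relatives Etv4 and Etv5 were among those high in group A. Kit itself, which the rule used, had 5130 CPM in WT and 6030 CPM in KO, and Ano1 4730 and 5410 CPM. Etv1, the ETS factor on which these cells depend, was at 2830 CPM in group A against 149 CPM in other nuclei in WT (19.0-fold, 16.8 to 21.5), and at 2620 against 130 CPM in KO (20.1-fold, 17.4 to 23.3). It had a UMI in 54 of 64 WT and 40 of 46 KO nuclei of the group, against 14.1% and 12.7% of other nuclei. With every nucleus thinned to 1000 UMIs, the shares were 85.7% and 76.7% in group A, 8.06% and 6.56% in other nuclei, and 1.75% and 0.985% in mesothelial-like nuclei. Of the 29 genes of Kit signalling listed, 27 had enough UMIs, 5 were at least 2-fold higher in both libraries (Etv1, Etv4, Etv5, Spry4 and Pik3r1) and 1 was at most 0.5-fold (Lyn). Spry4, a feedback inhibitor of receptor tyrosine kinases, was 18.6-fold (9.46 to 34.2) and 11.9-fold (5.61 to 22.8) higher. The median of that list was 1.24-fold in WT and 1.31-fold in KO, and over all genes it was 0.805-fold and 0.758-fold.

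Receptors for transmitters were led by Chrm3, the muscarinic acetylcholine receptor that signals through phospholipase C. Chrm3 was at 4640 CPM in WT and 4610 CPM in KO in group A, 9.59-fold (8.75 to 10.5) and 16.0-fold (14.3 to 17.8) above other nuclei. Plcb4, a phospholipase C beta, was 5.64-fold (5.17 to 6.14) and 8.86-fold (8.11 to 9.66) higher. Of 21 receptor genes, 15 had enough UMIs, and Chrm3, the serotonin receptor Htr2b, the endothelin receptor Ednra and the prostaglandin E receptor Ptger3 were at least 2-fold higher in both libraries. Chrm2, Tacr1, Htr4, Adra1a, Vipr2 and Lpar1 were at most 0.5-fold. Tacr1, a tachykinin receptor listed as a further marker of these cells, had 1 UMI in group A in each library.

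Calcium handling genes formed the longest set of high genes. Of 24, all had enough UMIs and 10 were at least 2-fold higher in group A in both libraries, while 5 were at most 0.5-fold. Cacna1d, the pore of an L-type calcium channel, was at 2380 CPM in WT and 2270 CPM in KO, 9.13-fold (8.03 to 10.3) and 9.94-fold (8.55 to 11.5) above other nuclei. Atp2a2, which pumps calcium into the endoplasmic reticulum, was 6.84-fold and 6.91-fold higher, and its relative Atp2a3 5.06-fold and 10.4-fold. The sodium-calcium exchanger Slc8a1 was 3.16-fold and 3.03-fold higher. Slc12a2, which loads cells with chloride, was 6.51-fold (5.55 to 7.60) and 6.49-fold (5.33 to 7.85) higher. The T-type channel gene Cacna1h was low, at 25.2 and 32.5 CPM in group A against 90.5 and 73.8 CPM in other nuclei, and its relative Cacna1g rested on 4 and 5 UMIs.

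The nitric oxide and cyclic GMP pathway was also high. Of its 8 genes, 5 were at least 2-fold higher in group A in both libraries and none was at most 0.5-fold. The soluble guanylate cyclase subunits Gucy1a1 and Gucy1b1 were 3.05-fold and 3.08-fold higher in WT, and 2.92-fold and 4.88-fold in KO. Prkg1, the kinase that cyclic GMP activates, was 2.38-fold (2.22 to 2.54) and 2.85-fold (2.63 to 3.10) higher. The phosphodiesterase Pde3a was 6.01-fold and 9.13-fold higher, and Pde9a 3.55-fold and 4.61-fold. Among gap junction genes, Gja1 was 18.9-fold (13.3 to 26.4) and 9.99-fold (6.79 to 14.3) higher and Gjc1 2.03-fold and 2.56-fold.

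**Figure D2:**
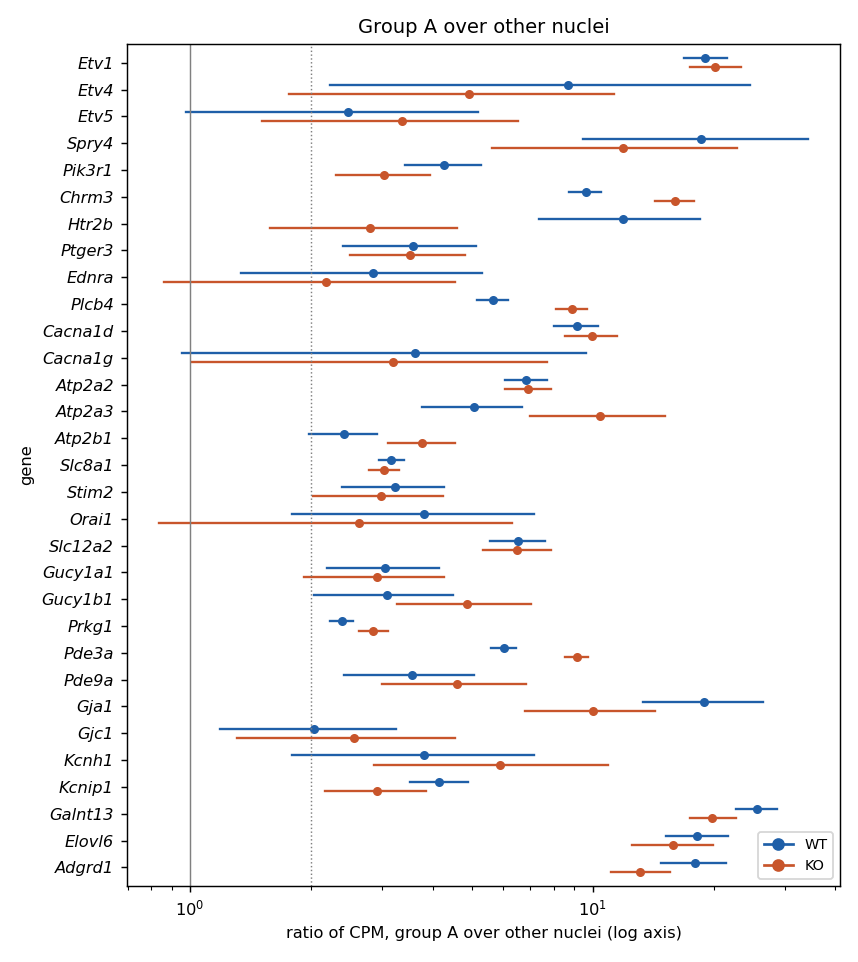
Ratio of CPM in group A over other nuclei (log axis) for genes named by role, in the WT (blue) and KO (orange) libraries. Bars are exact 95% counting intervals, and lines mark 1-fold and 2-fold. Etv1 lies at 19.0 and 20.1, and Prkg1 at 2.38 and 2.85.

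Channels of other kinds had few high genes, and 21.2% of all genes were at most 0.5-fold in group A. Of 23 potassium channel genes, 18 had enough UMIs, Kcnh1, Kcnh2 and Kcnip1 were at least 2-fold higher, and 8 were at most 0.5-fold. Of 9 sodium and HCN channel genes, 6 had enough UMIs, none was high and 4 were at most 0.5-fold. Among 28 transcription factors, 21 had enough UMIs and Etv1, Tcf21, Meis2, Tshz2, Zfhx3 and Zfhx4 were at least 2-fold higher, with 6 at most 0.5-fold. Galnt13 was at 3290 and 3300 CPM, 25.5-fold (22.7 to 28.7) and 19.8-fold (17.4 to 22.6) above other nuclei. The fatty acid elongase Elovl6 was 18.1-fold and 15.8-fold higher, and the adhesion receptor Adgrd1 17.9-fold and 13.1-fold.

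Most lists of markers of other cells with enough UMIs were low in group A, with pericyte and lymphatic endothelial genes as exceptions. All 11 smooth muscle genes were at most 0.5-fold the level of other nuclei, with a summed level of 2690 CPM in WT and 1380 CPM in KO against 10800 and 7590 CPM. All 9 mast cell genes were at 0 in both libraries, as were all 4 adipocyte and all 4 melanocyte genes. No gene of these lists had enough UMIs. In other nuclei they summed to only 0.907 (WT) and 1.21 (KO), 1.3 and 5.37, and 0.518 and 0.693 CPM, so the zeros show no difference. Mast cells and melanocytes are among the other cells known for Kit. The 6 pericyte genes summed to 311 and 509 CPM, beside 239 and 357 CPM in other nuclei, with none at most 0.5-fold. The 5 lymphatic endothelial genes summed to 92.6 and 368 CPM, beside 221 and 226 CPM, and Prox1, a transcription factor of that list, was 2.13-fold and 9.89-fold higher from 11 and 28 UMIs. In the endothelial list 4 of 6 genes were at 0 in both libraries. Macrophage genes summed to 16.8 CPM in WT and 303 CPM in KO in group A, beside 93.3 and 360 CPM in other nuclei. Fibroblast genes summed to 993 and 2240 CPM in group A, beside 1780 and 3210 CPM. That list of 10 includes Pdgfra, which the rule set to 0 in group A, so part of its lower sum was fixed.

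Group B was near group A in some genes and far from it in others. Over both libraries, Kit was at 2010 CPM in group B and 5530 CPM in group A, Ano1 at 4470 and 5030 CPM, and Cacna1d at 4130 and 2330 CPM. Gja1 was at 319 and 384 CPM. In contrast, Galnt13 had no UMI in group B against 696 in group A, which makes it at least 89.5-fold lower when 3 UMIs are taken as the floor for group B as a whole. Etv1 was at 209 CPM in group B (0.0762-fold group A, 0.0441 to 0.123), Chrm3 at 123 CPM (0.0265-fold, 0.0127 to 0.0490) and Plcb4 at 172 CPM (0.0313-fold, 0.0170 to 0.0527).

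Other genes were far higher in group B. Kcnd3, the pore of an A-type potassium channel, was at 6210 CPM in group B and 61.6 CPM in group A (101-fold, 58.4 to 191). Lrig1 was at 4260 and 170 CPM (25-fold, 17.7 to 36.3), the phosphodiesterase Pde4d at 8530 and 298 CPM, and the chromatin organiser Satb1 at 2860 and 133 CPM. The BMP receptor Bmpr1b was at 1740 and 142 CPM. Lrig1 and Bmpr1b stood high in both libraries of group B, at 4520 and 1640 CPM in WT and 3680 and 1980 CPM in KO. The 111 other nuclei of the same cluster had 3.31 CPM of Kit and 7820 CPM of the smooth muscle myosin gene Myh11, where group B had 515 CPM of Myh11. All 11 smooth muscle genes were at most 0.5-fold in group B, at 0.0394 to 0.238 times the level of those 111 nuclei.

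Group C carried the genes of its cluster. Muc2 was at 7290 CPM in WT and 6560 CPM in KO in group C against 454 and 245 CPM in other nuclei. Agr2, which folds mucins, was at 1150 and 337 CPM against 62.9 and 34.5 CPM. Kit was at 946 and 673 CPM in group C against 48.2 and 22.5 CPM in other nuclei, which the rule fixed, and Etv1 was at 23.7 and 0 CPM. The share of other nuclei with a UMI of Muc2 was 14.5% in WT and 6.08% in KO, and in group A it was 4.69% and 0%.

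**Figure D3:**
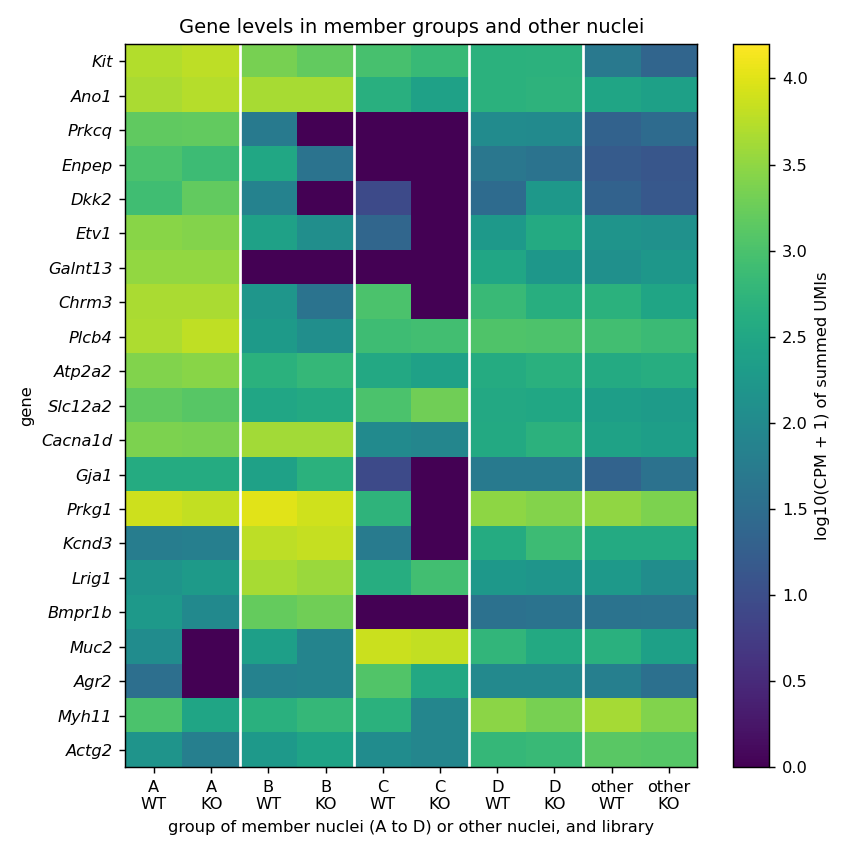
Level of 21 genes, as log10(CPM + 1) of summed UMIs, in member groups A to D and in other nuclei of each library. Etv1, Galnt13 and Chrm3 are brightest in group A, Kcnd3, Lrig1 and Bmpr1b in group B, and Muc2 in group C.

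Between the libraries, the 5 marker genes, on which the rule selected, were within 2-fold of each other in group A. In all members Dkk2 was not, at 2.89 (2.27 to 3.69). KO over WT ratios were 1.17 for Kit (1.05 to 1.32), 1.14 for Ano1 (1.01 to 1.29), 1.03 for Prkcq (0.821 to 1.29), 0.716 for Enpep (0.526 to 0.969) and 1.93 for Dkk2 (1.48 to 2.53). Ratios for Etv1 (0.927, 0.782 to 1.10), Galnt13 (1.0, 0.861 to 1.17), Chrm3 (0.995, 0.875 to 1.13) and Cacna1d (0.955, 0.795 to 1.15) held 1 within their intervals. Plcb4 was at 1.33 (1.19 to 1.5) and Pde3a at 1.59 (1.45 to 1.74). In group A, 4.98% of 1466 genes with enough UMIs were at least 2-fold higher in KO and 5.05% at most 0.5-fold. Of 8 genes of nitric oxide signalling and 10 of Kit signalling, none reached either. Of 15 in calcium handling Stim1 did, at 0.412 (0.161 to 0.942), and of 4 receptors Chrm2 did, at 0.238 (0.0717 to 0.628) from 27 UMIs in WT and 5 in KO.

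Carmn had a KO over WT ratio near 1 in group A and well below 1 in other nuclei. In group A it had 44 UMIs in WT (370 CPM, in 23 nuclei) and 36 in KO (390 CPM, in 21 nuclei), a ratio of 1.05 (0.658 to 1.67). In other nuclei the ratio was 0.320. The make-up of the 2 libraries differed, however. One smooth muscle-like cluster held 269 WT and 3 KO nuclei, while another held 225 and 232, and a macrophage-like cluster held 53 and 160. The part of this make-up in the ratio of other nuclei was not tested. Set against other nuclei of its own library, group A had 0.540-fold the Carmn level in WT (0.392 to 0.726) and 1.77-fold in KO (1.24 to 2.47). With nuclei thinned to 1000 UMIs, 26.2% (WT) and 36.7% (KO) of group A had a UMI of Carmn, and 2.18% and 1.48% of mesothelial-like nuclei did. No test of these differences is possible with 1 library each.

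In all members, 300 of 5982 genes with at least 30 UMIs over both libraries were at least 2-fold higher in KO (5.02%) and 506 at most 0.5-fold (8.46%). The 6 lowest, all without a UMI in KO members, were Fcgbp, Lingo2, Il1rapl2, Gsdmc2, Ang4 and Col28a1. Of 513 UMIs of Fcgbp, a goblet cell gene, 415 were in group C, and of 161 UMIs of Lingo2, 154 were in 2 nuclei. The 6 highest were Alkal1, Nos1, Slpi, Csgalnact1, Postn and Npr3. All 81 UMIs of Nos1, the neuronal nitric oxide synthase, were in 2 nuclei of group D, and 472 of 589 UMIs of Postn, a matrix gene, were in 2 nuclei. Il1rapl2 had 57 of its 60 UMIs in group A, and Npr3 had 27 of its 57 UMIs in KO there.

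Within group A, 73 of 1466 genes were at least 2-fold higher in KO (4.98%) and 74 at most 0.5-fold (5.05%). The genes named next were chosen after their values were seen, as the 12 in each direction whose interval lay farthest from 1. Cadm2, a synaptic adhesion gene, had 407 UMIs in 31 of 64 WT nuclei and 82 UMIs in 19 of 46 KO nuclei. That is 3430 against 888 CPM, a ratio of 0.259 (0.202 to 0.329), and in other nuclei the ratio was 0.939. Il1rapl2, an interleukin 1 receptor-like gene, had 57 UMIs in 8 WT nuclei, 31 of them in 1 nucleus, and none in KO, which makes it at least 14.8-fold lower in KO with 3 UMIs as the floor for the group. Ppp3ca, the catalytic subunit of calcineurin, was at 0.285 (0.208 to 0.384) against 1.07 in other nuclei, and Sox5 at 0.143 (0.0443 to 0.359) against 1.01. Dmd, the dystrophin gene, was at 0.175 (0.108 to 0.272) against 0.715, and 69 of its 169 WT UMIs were in 1 nucleus. Nkain3 was at 0.339 (0.196 to 0.560) in group A and 2.66 in other nuclei. Cadm1, Il1rapl1, Myh11, Pgm5, Ctnna2 and Chsy3 made up the rest of the 12, with ratios of 0.110 to 0.331. Outside these, Kcnip1, which binds A-type potassium channels, was at 0.415 (0.297 to 0.573) against 0.593 in other nuclei.

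Higher in KO were Npr3, the clearance receptor for natriuretic peptides, with 3 UMIs in WT and 27 in KO (11.6, 3.56 to 59.6), and Igfbp5 with 4 and 30 UMIs (9.65, 3.40 to 37.7). Npr3 was at 1.08 in other nuclei, and 11 of its 27 KO UMIs were in 1 nucleus. Complement C3 was at 5.83 (3.3 to 11), but it was also at 3.03 in other nuclei, and Igfbp5 was at 2.13. The same held for the mitochondrially encoded mt-Co1, mt-Co2, mt-Co3 and mt-Atp6, which were at 3.65 to 6.43 in group A and at 2.22 to 3.28 in other nuclei, and for Dcn and Anxa3, which were above 2 in both. Plod2 and Scarb2 were at 5.22 and 5.31 in group A and at 1.82 and 1.4 in other nuclei, and Nkain2 was at 2.48 and 0.811. With nuclei thinned to 1000 UMIs, C3 was in 95.1% and Dcn in 87.2% of KO mesothelial-like nuclei, and the part of their free RNA in group A was not tested. Library and genotype cannot be told apart here.

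**Figure D4:**
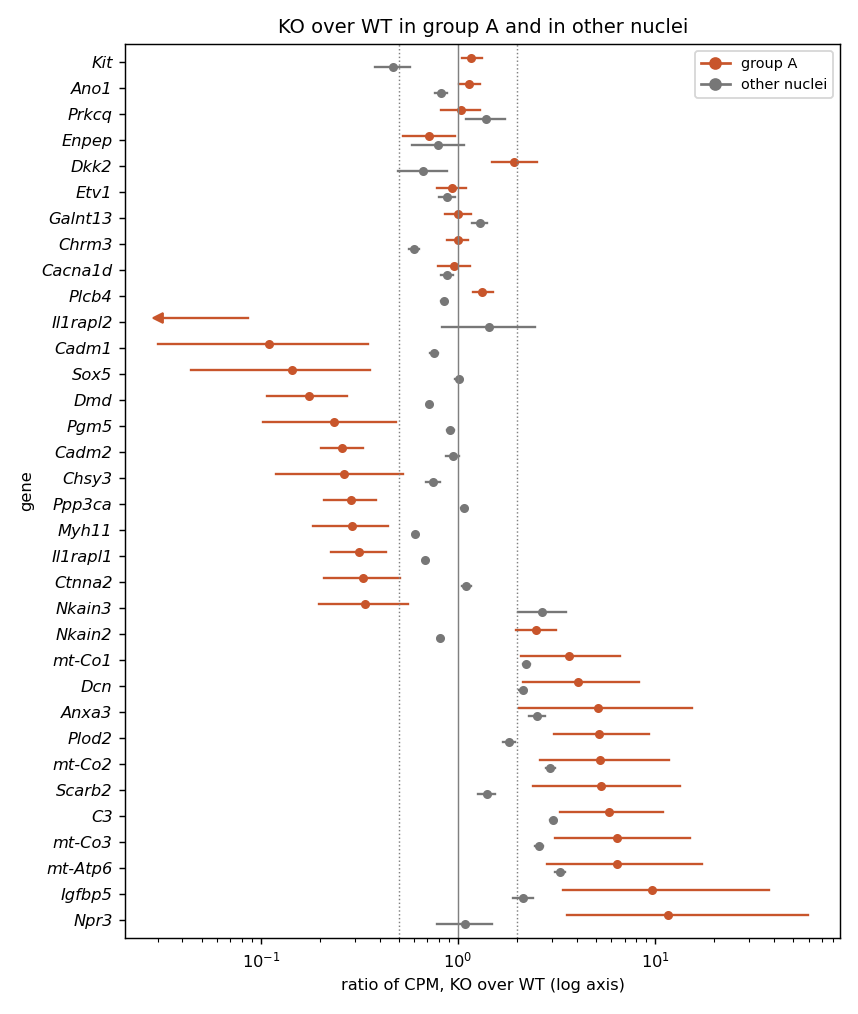
KO over WT ratio of CPM (log axis) in group A (orange) and in other nuclei (grey), with exact 95% counting intervals. Lines mark 0.5, 1 and 2, and the arrow marks a ratio of 0. Etv1, Galnt13 and Chrm3 lie near 1 in group A, Cadm2 at 0.259 and Npr3 at 11.6.

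Bulk libraries showed the same markers at tissue level, where fewer cells and less RNA per cell cannot be told apart. Kit had 156 (m1), 56.3 (t4) and 161 (t6) CPM in colon libraries labelled KO and 131 (t1), 123 (t6) and 178 (t7) CPM in WT. The value of t4 was the lowest of the 6, and the other two libraries labelled KO lay within the WT range. Ano1 had 195, 85.1 and 127 CPM in libraries labelled KO and 168, 214 and 227 CPM in WT, in the same order of tags. Etv1 had 72.0, 31.7 and 51.3 CPM against 70.4, 53.9 and 69.6 CPM. Library t4 was the lowest for all 3 genes. Log2 fold changes, labelled KO minus WT, were -0.21 for Kit (SE 0.35), -0.58 for Ano1 (SE 0.36) and -0.32 for Etv1 (SE 0.33), with edgeR adjusted p of 0.843, 0.50 and 0.721. Nothing in the labels says that the 3 libraries of a group came from separate animals, so p-values measure the spread between these libraries, which may be technical.

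Enpep alone of the 5 marker genes did not overlap between the groups in colon. It had 63.2, 29.5 and 59.5 CPM in libraries labelled KO and 105, 98.2 and 70.1 CPM in WT, and the log2 fold change was -0.84 with an SE of 0.31, which missed the threshold (edgeR adjusted p = 0.247). Jejunum values were 96.9, 125 and 59.8 CPM against 91.9, 76.6 and 87.3 CPM. Of 20886 genes tested, groups did not overlap in 19.2% in colon and 22.2% in jejunum. Genes past an adjusted p of 0.05 were 81 in colon (0.388%; 0.115% higher and 0.273% lower) and 45 in jejunum (0.215%; 0.124% higher and 0.091% lower).

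None of the 5 marker genes and none of the 19 tested of the 20 leading genes passed in either tissue by edgeR. At an unadjusted p under 0.05 there were 1 of 5 and 4 of 19 in colon, and 0 of 5 and 1 of 19 in jejunum, against 14.5% and 13.2% of all genes. Median log2 fold changes of the 5 were -0.21 in colon and -0.26 in jejunum, those of the 19 were -0.21 and -0.23, and those of all genes 0.00 and 0.02. By DESeq2, 1 of the 19 passed in colon and none in jejunum, and none of the 5 in either. Over all 20886 genes fitted, DESeq2 called 960 in colon and 805 in jejunum, so nothing is read from that 1 gene. Of the genes with a role above, Chrm3 was at -0.88 in colon (SE 0.28, adjusted p = 0.188) and -0.47 in jejunum (SE 0.28, adjusted p = 0.50).

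Some marker lists of other cells leaned to 1 side in 1 tissue, and others did so in both. In colon, all 11 smooth muscle genes had a negative log2 fold change, with a median of -0.55, and 9 of 10 epithelial genes did, with a median of -0.65, none past the threshold. Epithelial genes varied widely within WT colon. Epcam had 153 (t1), 304 (t6) and 5.11 (t7) CPM there, and libraries labelled KO lay within that range at 68.9 (m1), 78.2 (t4) and 167 (t6) CPM. In jejunum, 4 of 11 smooth muscle genes were negative, with a median of 0.15, and 5 of 10 epithelial genes, with a median of 0.01. Of all genes, 49.7% had a negative value in colon and 48.4% in jejunum. All 7 macrophage genes had a positive value in jejunum, with a median of 1.41, and 5 of 7 in colon. All 5 lymphatic endothelial genes were positive in jejunum, and 4 of 5 in colon. All 9 enteric neuron genes were negative in jejunum, and 4 of 9 in colon. In both tissues all 6 endothelial genes were positive (medians 0.22 in colon and 0.51 in jejunum), and 5 of 6 pericyte genes were (0.26 and 0.4). All 4 adipocyte genes were negative in both (-1.84 and -1.47). They too varied within a group: Adipoq in colon had 12.3 (m1), 0 (t4) and 0.684 (t6) CPM in libraries labelled KO. In WT colon it had 13.4 (t1), 14.6 (t6) and 8.27 (t7) CPM. No gene of the lists named in this paragraph so far passed the threshold. Of the 21 receptor genes, Chrm2, which was low in group A, was lower in colon libraries labelled KO (log2 fold change -1.45, SE 0.26, adjusted p = 0.0433). That call was lost in a fit of the 6 colon libraries alone (adjusted p = 0.123) and when any 1 of 11 of the 12 libraries was left out (0.059 to 0.19), the exception being jejunum m1, labelled KO (0.0132). P2ry14 was higher in jejunum libraries labelled KO (1.59, SE 0.21, edgeR adjusted p = 0.0145), and that call was lost without t4 labelled KO or without any 1 of the 3 WT libraries of jejunum (0.051 to 0.0895). The part of these cells in the marker values was not tested.

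The 2 tissues differed in the level of some markers. In WT, Prkcq was at 9.41 ± 2.64 CPM (SD, n = 3) in colon and 52.9 ± 3.16 CPM in jejunum, Dkk2 at 4.85 ± 1.20 and 20.5 ± 3.11 CPM, and Gja1 at 114 ± 13.5 and 329 ± 44.8 CPM. The 3 libraries of each tissue did not overlap for any of the 3. Kit was at 144 ± 29.9 and 140 ± 3.88 CPM, and Etv1 at 64.6 ± 9.34 and 75.7 ± 8.22 CPM, with overlap for Kit and none for Etv1. The difference between tissues was not tested. The share of all genes without overlap between the tissues was not counted, so nothing is read from the non-overlap of these genes.

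**Figure D5:**
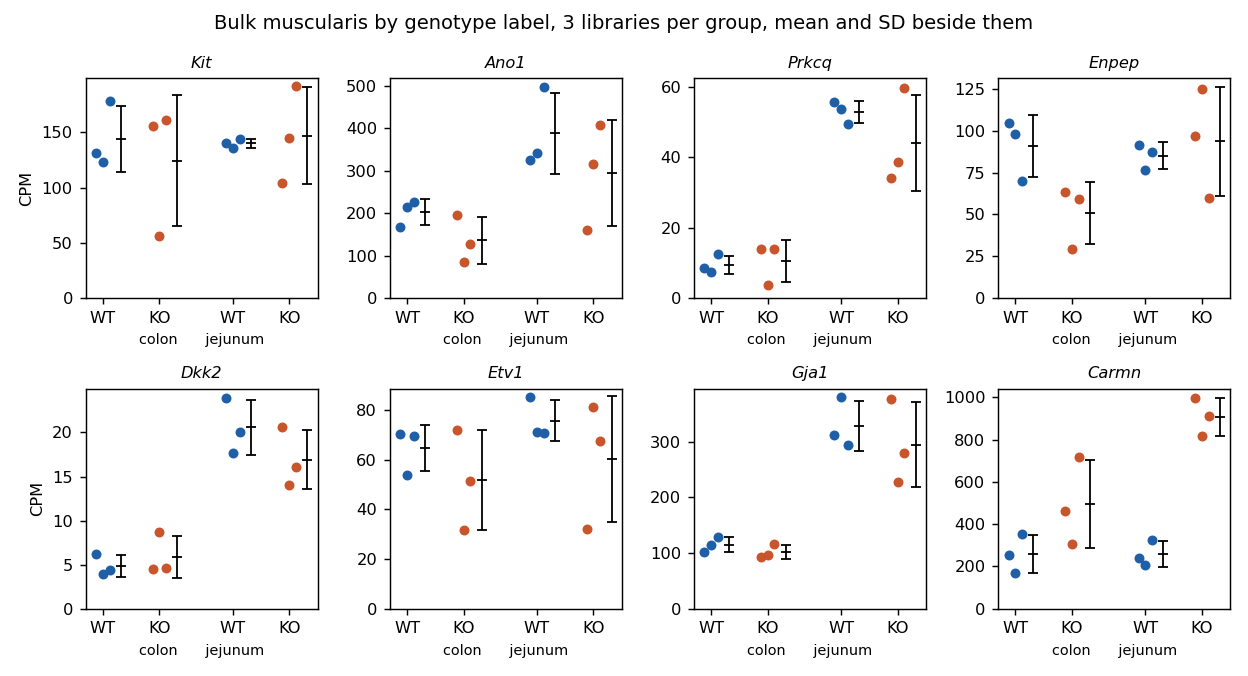
CPM of the 5 marker genes, Etv1, Gja1 and Carmn in the 12 bulk libraries, by tissue and genotype label. Points are libraries, and the bar beside them is the mean and SD of 3. Marker values of libraries labelled KO and WT overlap except for Enpep in colon, and Carmn is higher in jejunum libraries labelled KO.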

How the data were processed

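Nuclei were analysed from 2 deposited gene-by-barcode count matrices whose headers name cellranger-arc 2.0.0, and bulk RNA from 1 deposited count table. Per the submitters' processing notes, which give no role or order, GRCm38, mm10, STAR 2.0.4b, Subread, featureCounts 1.4.5, edgeR and Cell Ranger were used. Every deposited gene value in the matrices was even, while 11.6% (WT) and 11.5% (KO) of region values were odd. Each gene value was therefore taken as 2 for every UMI, which is an inference from the values. The matrices also hold counts for 35003 (WT) and 26493 (KO) open chromatin regions, called in each library by itself. The labels speak of a single-nucleus RNA protocol only. Feature tables deposited with them gave gene names and region positions.

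UMIs were summed over nuclei and scaled to CPM. Ratios were read for genes with at least 30 UMIs, over members and other nuclei of each library or over both libraries, and have exact 95% intervals for counting error. Clusters came from the Leiden method of leidenalg 0.10.2 (2000 variable genes, 30 components, 20 nearest neighbours, resolution 1.5). A doublet caller, Scrublet in scanpy 1.11.5, marked 5 of 4533 nuclei and so did not work, and no doublets were removed. To compare shares of nuclei, 1000 UMIs were drawn from each nucleus, which left out those below (1998 WT and 1224 KO nuclei remained). The scripts were tested on simulated data. Bulk counts were tested with edgeR 4.0.16 (TMM, quasi-likelihood, all 12 libraries in 1 fit with tissue by genotype groups) and, as an alternative, DESeq2 1.42.0, in R 4.3.3, with adjusted p over 20886 genes and a threshold of 0.05. Regions were matched between libraries at an overlap of 50%.

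The members and lists were chosen with earlier results of these data known. Named genes are Carmn, the 5 marker genes, genes of the lists by role, the 20 genes highest in members over other nuclei (by the lower of both ratios, in at least 10% of members of each library), and the 6 highest and 6 lowest KO over WT ratios in members. Genes named for groups A and B were added after their values were seen. Leaving out the nuclei marked by Scrublet was tried as an alternative. Other alternatives were 500 genes per barcode, a marker sum of 4, means of per-nucleus CPM, TMM factors, thinning, leaving out each library, other bulk filters and fits, and members of group A only or without the epithelial-like cluster. The last 2 were chosen after seeing the data. One of the 20 genes is not reported here.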

Additional observations from a re-analysis of the deposited data

How the results depend on the processing

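Of the totals, 55 values under an alternative stayed near the reported one and 35 moved. The 55 include values with the 5 nuclei marked by Scrublet left out. As 0 of those were members, these values could hardly move and show no stability. The share of members was 4.05% in WT without the epithelial-like cluster, and 3.65% (WT) and 3.43% (KO) with nuclei thinned. With means of per-nucleus CPM, 261 genes were at least 2-fold higher in members (80 of the 137 kept) and 1309 at most 0.5-fold (210 of the 279 kept), and 959 were lower in KO members (401 of 506 kept). With group A alone, chosen after seeing the data, 369 were higher (66 kept), 2483 lower (198 kept), 73 higher in KO (27 kept) and 74 lower in KO (10 kept). Without the epithelial-like cluster, 308 were lower in KO (249 kept). Regions 2-fold more accessible numbered 197 by share of nuclei, which was not scaled for depth, and 319 in group A. In group A alone Lrig1 reversed in WT (0.810), and so did Csgalnact1 (0) and Postn (0.193) in KO over WT. In bulk, DESeq2 called 960 genes in colon and 805 in jejunum (keeping all 81 and 45), and fits within 1 tissue called 0 and 21. Leaving out 1 library each gave 7 to 180 calls in colon and 2 to 172 in jejunum. L3mbtl4 in jejunum was at 0.04 by DESeq2. Leaving out 1 library reversed these log2 fold changes in colon: Kit -0.43 to 0.14, Prkcq -0.09 to 0.57, Dkk2 -0.10 to 0.53, 2600014E21Rik -0.61 to 0.65, Galnt13 -0.10 to 0.43, Atp2a3 -0.43 to 0.26, Adgrd1 -0.07 to 0.38, Tmem150b -0.59 to 0.11, Cux2 -0.35 to 0.46 and Lrig1 -0.26 to 0.25. In jejunum it did so for Kit -0.18 to 0.24, Enpep -0.14 to 0.37, 2600014E21Rik -0.36 to 1.03, L3mbtl4 -1.79 to 0.53, Bmpr1b -0.35 to 0.01, Tmem150b -0.01 to 0.75, Mdfic -0.24 to 0.06 and Lrig1 -0.54 to 0.08. The cause of these moves was not tested. No paired analysis was possible because libraries labelled KO and WT share 1 number per tissue.

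With 1 library of nuclei per genotype, no difference between genotypes in nuclei has a replicate check. Member counts per region were too low to compare single regions, and rare transcripts in group A rest on few UMIs in few nuclei. Deposited gene values were divided by 2 on an inference, which sets UMI counts, intervals and the marker minimum.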

Other observations

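The 31 nuclei that met the marker minimum but had Pdgfra stood apart in depth. The 17 in WT held 1296680 UMIs in all, with a median marker sum of 42, and the 14 in KO held 594229 UMIs, with a median marker sum of 38. Their Etv1 level was 146 CPM in WT and 182 CPM in KO, near that of other nuclei (149 and 130 CPM). Of them, 1 in WT and 4 in KO lay in the cluster of group A. That cluster also held 15 nuclei outside the rule, among them 1 per library with Kit and a marker sum of 1 or 2.

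Within group D, Galnt13 and Chrm3 had KO over WT ratios of 0.541 (0.369 to 0.779) and 0.594 (0.470 to 0.747), where group A had 1.0 and 0.995, and Etv1 was at 2.04 (1.47 to 2.85). Group D is a mixture of clusters in which a few large nuclei hold much of the UMIs, and no test is possible with 1 library each.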
